A study of Homo sapiens with 16 samples.

Results

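The replication-dependent histone genes encode the bulk of the H1, H2A, H2B, H3 and H4 proteins that package newly made DNA. They were taken here as every gene whose current symbol is H1-1 to H1-5 or begins with H2AC, H2BC, H3C or H4C and a number, with pseudogenes dropped, which gave 69 of the 60676 gene identifiers in the count tables. Of these, 5 encode H1, 17 H2A, 19 H2B, 13 H3 and 15 H4. By position (GRCh38), 54 lie in the cluster on the short arm of chromosome 6 (6p22), 11 at 1q21 and 2 at 1q42, and H4C16 and H2BC12L lie alone on chromosomes 12 and 21.

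RNA came from 2 human melanoma cell lines. A101D is labelled methionine dependent and MeWo methionine independent, meaning that MeWo is described as able to grow when homocysteine replaces methionine. Each line gave 8 libraries, numbered 1 to 8, made from total RNA with a stranded kit, so that mRNAs without a poly(A) tail are captured. All cultures had DMEM with dialyzed serum, cystine, glutamine and pyruvate, and the growth protocol names a control medium with methionine and a methionine-free medium with homocysteine. No label says which culture had which medium. Replicates 1-4 and 5-8 of each line are therefore named by number alone, 4 libraries each, and no medium is assigned to them. This split was proposed with earlier results of these data known, so its p-values describe how far these libraries stand apart. Nothing in the labels says that the replicates were separate cultures, and each line stands for itself alone. The question behind the series was how replacing methionine with homocysteine affects a dependent and an independent line.

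Replication-dependent histone genes work together with the cell cycle. Their transcription rises as cells enter S phase, when NPAT, switched on by cyclin E and CDK2, gathers the machinery at the gene clusters, and their mRNAs are destroyed when DNA synthesis stops. These mRNAs end in a conserved stem-loop in place of a poly(A) tail. The stem-loop is bound by SLBP, which guides 3′ end processing with the U7 snRNP, translation and decay. Some of these genes can also make polyadenylated transcripts in cells that have left the cycle.

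The stem-loop is shown because it defines this class of mRNA and is not what the genes were chosen by. A match to its consensus was found in the GENCODE v29 transcript models of 31 of the 69 genes. Many of the other models end at the stop codon, so no match says only that the model holds none. The models carried 6 forms of 16 bases, each written 5′ to 3′ with the 4-base loop in capitals:
17 genes, among them H2AC6, H2AC8, H2BC9 and H3C10: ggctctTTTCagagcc
5 genes, H4C2, H4C5, H4C8, H4C11 and H4C16: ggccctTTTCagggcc
4 genes, H2BC4, H2BC5, H2BC7 and H3C8: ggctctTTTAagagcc
3 genes, H4C9, H4C14 and H4C15: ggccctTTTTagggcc
H3C6: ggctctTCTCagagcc
H2AC11: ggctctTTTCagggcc
The stem of the H4 genes differed in sequence from that of the H2A, H2B and H3 genes, and H2AC11 held 1 arm of each kind.

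Promoters were read from RefSeq (GRCh38.p14), 250 bases before to 50 after the start, for 63 of the 69 genes. The octamer ATTTGCAT, on either strand, stood in 14 of 18 H2B and 11 of 16 H2A promoters, in 1 of 11 H3 promoters and in none of the 5 H1 and 13 H4 promoters. Among all 27305 promoters of that length, 1.80% held it. H2A and H2B genes can lie side by side, as H2AC7 and H2BC7 do, and then share promoter bases. A match there can count for both genes, so the H2A and H2B counts are not independent. The CCAAT box, also on either strand, stood in 53 of 63, against 35.7% of all promoters, and in 3 of 13 for H4. The TATA box letters TATAAA, again on either strand, stood in 42 of 63, against 11.95%. The 100 bases before the start of 4 H2B genes follow, on the strand of the gene. Matches to the octamer, CCAAT and TATAAA on that strand alone are in capitals. H2BC9 and H2BC10 are shown because they were almost without counts in MeWo, and H2BC11 and H2BC7 because they were well counted in both lines:
H2BC9, chr6:26251514-26251613, plus strand: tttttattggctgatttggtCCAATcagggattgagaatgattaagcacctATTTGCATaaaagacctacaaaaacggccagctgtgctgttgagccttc
H2BC10, chr6:26272831-26272930, plus strand: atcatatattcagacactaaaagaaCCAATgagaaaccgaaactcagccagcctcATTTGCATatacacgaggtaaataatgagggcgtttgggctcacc
H2BC11, chr6:27132796-27132895, minus strand: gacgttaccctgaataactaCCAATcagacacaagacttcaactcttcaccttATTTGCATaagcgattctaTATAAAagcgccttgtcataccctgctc
H2BC7, chr6:26199416-26199515, plus strand: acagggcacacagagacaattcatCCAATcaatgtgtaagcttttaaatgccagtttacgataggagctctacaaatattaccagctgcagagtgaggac
All 4 stretches hold the CCAAT box, and the octamer stood in H2BC9, H2BC10 and H2BC11. The octamer match counted for the promoter of H2BC7 is not within the stretch shown, and its place and strand were not recorded. These letter matches are a description of the sequence and no evidence of binding.

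Total counts ran from 28910881 to 38961862 per library. The number of genes with a count was 31281 to 33107 in A101D replicates 1-4 and 34020 to 34607 in replicates 5-8. MeWo replicate 2 stood apart, with 34471 genes against 30066 to 31433 in the other MeWo libraries, and without it the counts of changed histone genes given below moved only for MeWo replicates 5-8 against 1-4. The melanocyte markers MITF, SOX10, PMEL, MLANA, S100B and DCT were all detected in both lines. The 8 markers of other cell types (keratinocyte, fibroblast, endothelial and blood) summed to 2.51 to 2.81 CPM in A101D replicates 1-4, 5.26 to 6.56 CPM in replicates 5-8 and 71.5 to 83.0 CPM in MeWo, where LUM made up most of it. CPM is a count relative to the total of its library, with library sizes scaled by TMM factors (trimmed mean of M-values). It is not divided by gene length, so levels of different genes are not on the same scale. Rankings by CPM and sums over genes given here depend on gene length too.

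**Figure D1:**
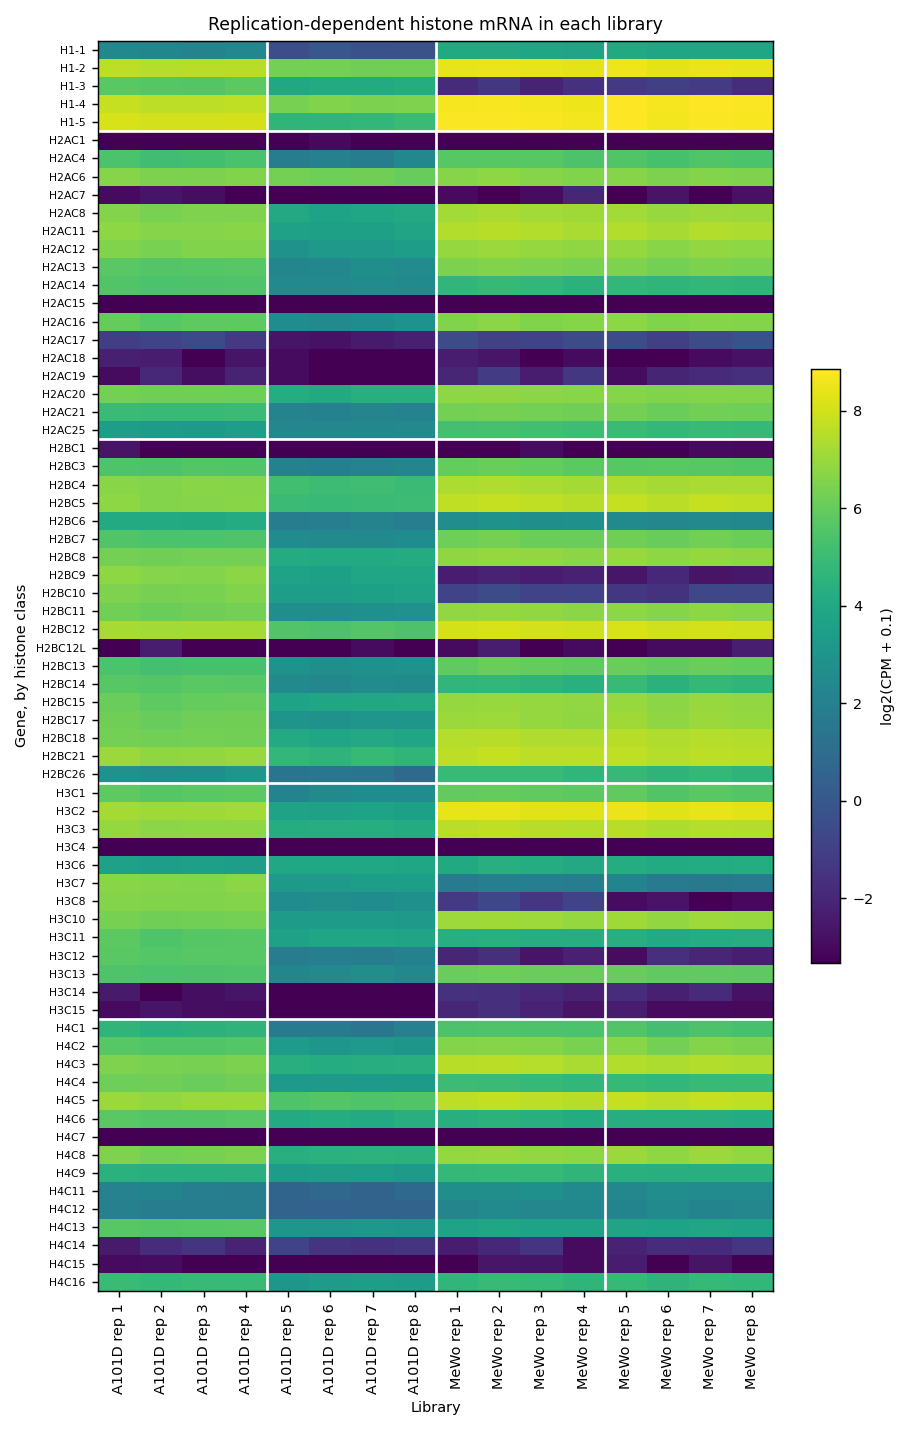
Level of each of the 69 replication-dependent histone genes (rows, by class) in each of the 16 libraries (columns), as log2(CPM + 0.1), with white lines between classes and between groups of 4 libraries. A101D replicates 5-8 are darker than replicates 1-4 in nearly every row, and H1-3, H2BC9, H2BC10, H3C8 and H3C12 are dark in MeWo only.

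Histone mRNA was scarce in A101D replicates 5-8. The summed level of the 69 genes was 4195 CPM, 3812 CPM, 3931 CPM and 4056 CPM in A101D replicates 1 to 4. In replicates 5 to 8 it was 877 CPM, 871 CPM, 898 CPM and 889 CPM. In MeWo it ran from 5205 to 5925 CPM in replicates 1-4 and from 5129 to 5813 CPM in replicates 5-8. The sum was thus 4.53-fold lower in A101D replicates 5-8, with no overlap, while the MeWo groups overlapped. As a share of raw counts, the genes made up 0.359 to 0.398% of A101D replicates 1-4, 0.0927 to 0.0946% of replicates 5-8 and 0.527 to 0.574% of the MeWo libraries. In bulk RNA, fewer cells in S phase and less histone mRNA per cell cannot be told apart.

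By class, the linker histone H1, which binds DNA between nucleosomes, had a summed level of 724 ± 32.9 CPM (SD, n = 4) in A101D replicates 1-4 and 211 ± 5.88 CPM in replicates 5-8. H2A and H2B form the dimers at the outer faces of the nucleosome. Their sums went from 689 ± 33.8 to 158 ± 4.66 CPM for H2A and from 1242 ± 51.4 to 253 ± 9.23 CPM for H2B. H3 and H4 form the central tetramer. Their sums went from 743 ± 27.4 to 102 ± 3.52 CPM for H3 and from 601 ± 23.8 to 160 ± 2.68 CPM for H4. The ratio of the means was therefore 3.43 for H1, 4.36 for H2A, 4.90 for H2B, 7.32 for H3 and 3.76 for H4. In MeWo the ratio of the larger to the smaller mean lay between 1.02 and 1.07, and every class overlapped between its groups. The mean of H1 was the higher one in MeWo replicates 5-8, and the means of the other classes were the lower ones there.

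**Figure D2:**
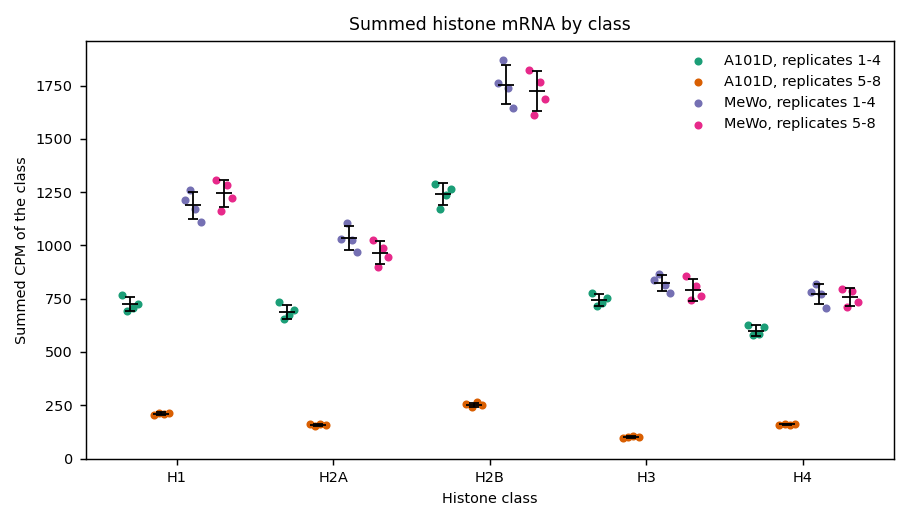
Summed CPM of the replication-dependent histone genes of each class, by library (points), with the mean and SD of each group of 4 libraries (black). In all 5 classes the A101D replicates 5-8 lie below the other 3 groups, with a total of 871 to 898 CPM against 3812 CPM or more.

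Of the 69 genes, 56 had enough counts to be tested. The low-count filter kept a gene that reached 0.298 CPM in at least 4 libraries, so a gene could pass through the group where it was high. H3C4, H4C7 and H2AC15 had no count in any library. H2AC15 shares all its exon bases with the H2B gene H2BC15 on the other strand, and H3C4 overlaps another annotated gene, AL031777.3 on the same strand. Whether reads were left unassigned there was not tested. The other 10 untested genes (H2AC1, H2AC7, H2AC18, H2AC19, H2BC1, H2BC12L, H3C14, H3C15, H4C14 and H4C15) reached at most 15 counts in any library. H2AC1 and H2BC1 are known from the testis. Of the 13 untested genes, 9 have fewer than 50% of their 75-base windows unique among transcripts, most of them the duplicated genes at 1q21. The part of reads that match more than 1 place in their low counts was not tested. Among the tested genes, 48 have at least 50% unique windows.

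In A101D, 55 of the 56 tested genes were lower in replicates 5-8 than in replicates 1-4 and 1 was higher (limma, Benjamini-Hochberg adjusted p under 0.05). Over all 21569 genes tested, 35.8% were lower and 29.6% higher. The median log2 fold change was -2.55 for the 56 genes and -0.05 for all genes. In 55 of the 56 genes all 4 libraries of replicates 5-8 lay below all of replicates 1-4, and in 1 they lay above, against 32.9% and 27.0% of all genes.

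H1 genes differed among themselves in the size of the fall. H1-5 stood at 283 CPM, 261 CPM, 265 CPM and 273 CPM in A101D replicates 1 to 4 and at 25.2 CPM, 25.3 CPM, 27.1 CPM and 31.3 CPM in replicates 5 to 8. Its log2 fold change was -3.32 (SE 0.05), which is 9.96-fold lower, with adjusted p = 1.41e-35. H1-4 stood at 224 CPM, 199 CPM, 199 CPM and 205 CPM and then at 82.9 CPM, 93.2 CPM, 87 CPM and 89.7 CPM. It fell 2.34-fold (log2 -1.23, SE 0.05, adjusted p = 1.89e-22). H1-2 (log2 -1.30) and H1-3 (log2 -1.59) lay near H1-4, and H1-1 (log2 -2.64) between them and H1-5. Differences between genes within a class were not tested.

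All 12 tested H2A genes fell, with a median log2 fold change of -2.95. H2AC11 stood at 109 CPM, 99.2 CPM, 99.3 CPM and 104 CPM and then at 12.3 CPM, 12.2 CPM, 12.2 CPM and 13.8 CPM, 8.16-fold lower (log2 -3.03, SE 0.06). H2AC8 stood at 98.2 CPM, 86.2 CPM, 90.5 CPM and 92.3 CPM and then at 16.1 CPM, 13.5 CPM, 14 CPM and 16.1 CPM (log2 -2.63, SE 0.06). H2AC6 fell least of the class. Its values were 101.5 CPM, 87.5 CPM, 88.8 CPM and 93.7 CPM in replicates 1 to 4 and 78.8 CPM, 71.2 CPM, 73.4 CPM and 64.2 CPM in replicates 5 to 8, a 1.30-fold fall (log2 -0.37, SE 0.06, adjusted p = 5.43e-06). H2AC25, at 1q42, fell 2.08-fold, from between 9.66 and 11 CPM to between 4.90 and 5.31 CPM.

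All 17 tested H2B genes fell as well, with a median log2 fold change of -2.35 and a range from -3.49 in H2BC3 to -1.57 in H2BC26. H2BC12 stood at 155 CPM, 143 CPM, 151 CPM and 151 CPM and then at 46.7 CPM, 44.3 CPM, 48.4 CPM and 43.3 CPM (log2 -1.72, SE 0.04). Just under 50% of its windows are unique. H2BC5 stood at 110 CPM, 96.8 CPM, 100.8 CPM and 103 CPM and then at 31.1 CPM, 29.9 CPM, 31.6 CPM and 32.5 CPM (log2 -1.71, SE 0.05).

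H3 held the deepest falls and the one rise. H3C8 stood at 98.5 CPM, 92.9 CPM, 92.7 CPM and 95.5 CPM and then at 6.07 CPM, 6.47 CPM, 6.01 CPM and 6.82 CPM, 14.9-fold lower (log2 -3.90, SE 0.07, adjusted p = 9.62e-38). H3C12 fell 14.0-fold, from between 50.7 and 53.3 CPM to between 3.42 and 4.02 CPM. H3C2 fell 11.3-fold, from between 140 and 147 CPM to between 12.1 and 13.3 CPM, and H3C3 fell 6.02-fold. H3C6 went the other way. It stood at 12.6 CPM, 11.3 CPM, 11.8 CPM and 11.4 CPM in replicates 1 to 4 and at 15.3 CPM, 15.3 CPM, 15.1 CPM and 14 CPM in replicates 5 to 8, 1.26-fold higher (log2 0.34, SE 0.07, adjusted p = 2.54e-05).

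All 12 tested H4 genes fell, with a median log2 fold change of -1.76. H4C5 stood at 129 CPM, 120 CPM, 130 CPM and 131 CPM and then at 45.2 CPM, 47.7 CPM, 44.8 CPM and 47.6 CPM (log2 -1.46, SE 0.05). H4C3 fell 4.42-fold, from between 81 and 90.1 CPM to between 18.3 and 20.6 CPM. H4C9 fell least of the class, 1.98-fold, from between 19.8 and 22.2 CPM to between 9.25 and 11.3 CPM.

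H2AC6, which fell least, and H3C6, which rose, have long annotated models. The exon model of H2AC6 spans 1668 bases, with 1114 bases after the stem-loop, and that of H3C6 spans 2679 bases. The 17 tested genes with an exon model over 1000 bases had a median log2 fold change of -2.15, with a range from -3.90 to 0.34. The 39 with shorter models had a median of -2.64, with a range from -3.81 to -1.06. Long models can count polyadenylated or read-through transcripts as well as the stem-loop form, and the deposited counts do not separate them. The share of each form was not tested, and H3C8, with the deepest fall, also has a long model.

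**Figure D3:**
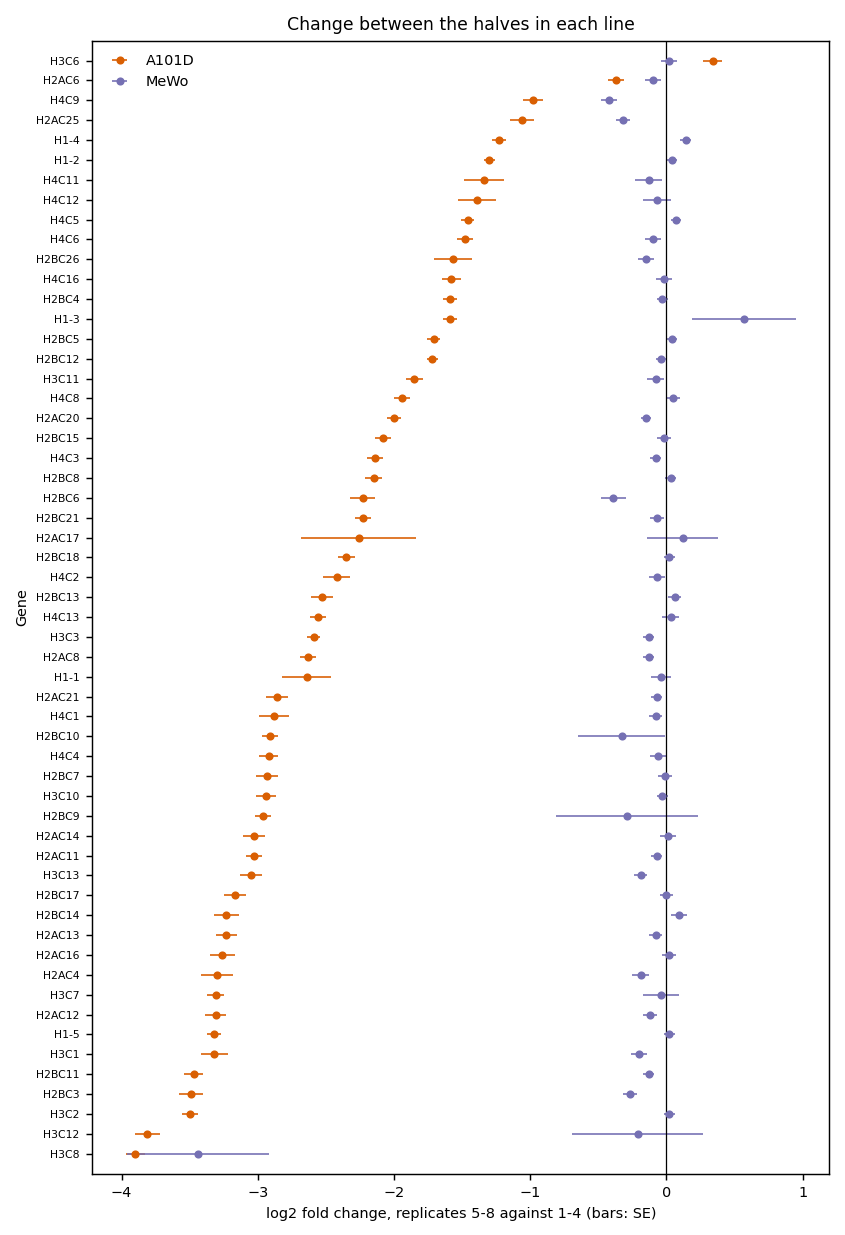
Log2 fold change of each tested gene between replicates 5-8 and 1-4 of A101D (orange) and MeWo (purple), with SE, in order of the A101D change. A101D runs from -3.90 in H3C8 to 0.34 in H3C6, while MeWo lies near 0 except for H3C8 and wide intervals in genes with few counts.

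In MeWo the same comparison found 11 of the 56 genes lower and 1 higher, against 8.51% of all genes lower and 4.59% higher. The median log2 fold change was -0.07, against -0.02 for all genes. When libraries were scaled by total counts alone, 7 were lower and 3 higher. Leaving out 1 library at a time gave between 6 and 15 lower genes, with 6 when MeWo replicate 1, 2 or 6 was left out. H4C9 stood at 28 CPM, 28.6 CPM, 28.4 CPM and 25.4 CPM in replicates 1 to 4 and at 21 CPM, 19.9 CPM, 20.7 CPM and 20.7 CPM in replicates 5 to 8 (log2 -0.42, SE 0.06, adjusted p = 5.96e-07). H2AC25 likewise fell, from between 33.7 and 39.6 CPM to between 27.3 and 31.6 CPM (log2 -0.32, SE 0.05). The MeWo groups overlapped in 49 of the 56 genes and replicates 5-8 lay below in 7, against 8.11% of all genes below and 6.2% above. H1-3, H2BC9, H3C8 and H3C12 passed the low-count filter through A101D alone, and among the 52 genes that also passed it in MeWo, 10 were lower and 1 higher.

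H1-4 was the gene called higher, at 416 CPM, 429 CPM, 397 CPM and 371 CPM and then 462 CPM, 410 CPM, 465 CPM and 439 CPM. These groups overlapped (log2 0.14, SE 0.04, adjusted p = 0.0294), and the call was lost without MeWo replicate 1, 3, 4, 5, 7 or 8. H3C8 was nearly uncounted in MeWo, with 52 counts summed over replicates 1-4 and 4 over replicates 5-8. The ratio of those sums per library size was 14.0, with an exact 95% interval from 5.16 to 53.4 that covers counting error only.

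The difference between the changes of the 2 lines was tested for each gene. It was positive, meaning a deeper fall in A101D than in MeWo, in 54 of 56 genes and negative in H3C6 alone (log2 -0.31, SE 0.09, adjusted p = 0.00308). Over all genes it was positive in 27.6% and negative in 20.8%. The median was 2.42 on the log2 scale, against 0.06 for all genes. H3C2 gave 3.52 (SE 0.07) and H1-5 gave 3.34 (SE 0.07). H2AC6 had the smallest positive one, 0.27 (SE 0.09, adjusted p = 0.0103), and it was not called under median-of-ratios or total-count scaling. Among the 52 genes that passed the low-count filter in MeWo too, it was positive in 51 and negative in 1. H1-3, H2BC9, H3C8 and H3C12 have too few MeWo counts for a usable difference.

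In replicates 1-4, where A101D histone mRNA was abundant, most genes were modestly higher in MeWo. Of the 56 genes, 40 were higher in MeWo and 14 lower, against 35.8% and 43.3% of all genes. The median log2 fold change was 0.65, against -0.09 for all genes. The largest excesses lay at 1q42. H2BC26 stood at 30.2 CPM, 29.6 CPM, 29.2 CPM and 25.7 CPM in MeWo against 7 CPM, 6.1 CPM, 6.61 CPM and 8.12 CPM in A101D, 4.11-fold higher (log2 2.04, SE 0.09, adjusted p = 8.41e-23). Its neighbour H2AC25 was 3.49-fold higher (log2 1.80, SE 0.07). H1-1 was 3.24-fold higher, H3C2 2.28-fold and H1-5 1.57-fold. H2AC6 (log2 0.13) and H2AC17 (log2 0.35) did not pass the test. H2AC6 passed it in 13 of the alternative settings and single-library omissions.

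Among the 14 genes lower in MeWo, 13 lie on chromosome 6 and H4C16 (log2 -0.15) on chromosome 12. H4C16 had the smallest difference of the 14. Only 13 genes were called lower under each of the other scalings and with limma-trend. The 13 on chromosome 6 fall into 4 stretches in which they are next to each other among the tested histone genes. The longest stretch, chr6:26234212-26273412, is 39.2 kb long and holds H1-3, H4C6, H3C7, H2BC9, H3C8 and H2BC10. The gene on one side of it, H3C6, was 1.5-fold higher in MeWo, and H4C8 on the other side was also higher (log2 0.49). The other stretches hold H2BC6 and H4C4 (chr6:26183761-26189112), H2AC14 and H2BC14 (chr6:27814302-27815489), and H3C11, H4C13 and H3C12 (chr6:27871845-27890826). Only 17.6% of the windows of H2AC14 are unique. Outside H1-3, H3C7, H2BC9, H3C8, H2BC10 and H3C12, the log2 differences of these stretches lay between -1.89 and -0.81. The stretches were noticed in the data, and gene copy number was not measured.

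5 of these genes were below 1 CPM in every MeWo library of replicates 1-4. H2BC9 stood at 110 CPM, 99.6 CPM, 97.9 CPM and 106 CPM in A101D and at 0.0878 CPM, 0.129 CPM, 0.0953 CPM and 0.117 CPM in MeWo. That is 13390 counts over the A101D libraries and 14 over the MeWo libraries, a ratio of 972 (exact 95% interval 579 to 1778, counting error only). H1-3 had 6747 and 27 counts, a ratio of 254 (174 to 385). H3C8 had 12252 and 52 counts (ratio 239, interval 182 to 321). H3C12 had 6671 and 18 counts (ratio 376, interval 238 to 636). H2BC10 had 11415 and 63 counts (ratio 184, interval 144 to 240). Every 75-base window of the models of H1-3, H2BC9, H2BC10 and H3C8 is unique among transcripts. For H3C12 this holds only for its 411-base coding transcript, since its 775-base exon model shares 346 bases with H2AC17 on the same strand, and counts there may have been assigned to either gene or to none. H3C7, between H4C6 and H2BC9, was also low in MeWo, at 3.16 to 3.72 CPM against 98.4 to 107 CPM.

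**Figure D4:**
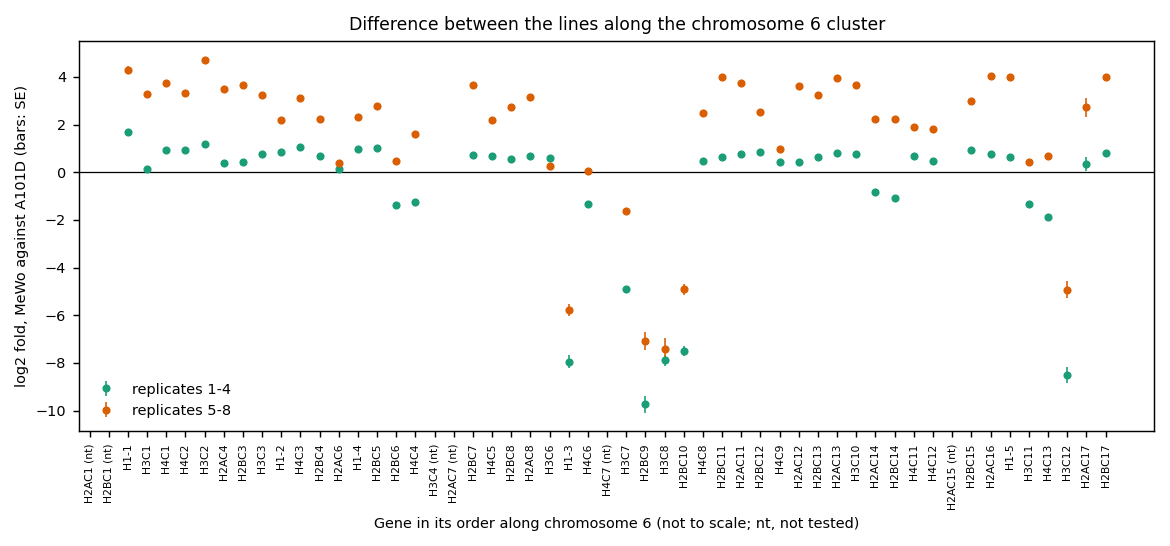
Log2 difference of MeWo against A101D, with SE, for the histone genes of chromosome 6 in their order along the chromosome (not to scale), in replicates 1-4 (green) and 5-8 (orange). Most genes lie above 0, and higher in replicates 5-8 than in 1-4, while H1-3, H3C7, H2BC9, H3C8, H2BC10 and H3C12 lie far below 0 in both.

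In replicates 5-8, 49 of the 56 genes were higher in MeWo and 6 lower, against 40.5% and 43.5% of all genes. The median log2 fold change was 2.74, against -0.03 for all genes. H3C2 had the largest excess, with 359 CPM, 312 CPM, 338 CPM and 314 CPM in MeWo against 12.8 CPM, 12.3 CPM, 13.3 CPM and 12.1 CPM in A101D, 26.1-fold (log2 4.71, SE 0.06, adjusted p = 1.98e-44). H1-1 followed at 19.6-fold. The 6 genes that stayed lower in MeWo were H1-3, H2BC9, H2BC10, H3C7, H3C8 and H3C12, and H4C6 did not pass the test (log2 0.04). H2BC9 had 1918 counts in A101D and 13 in MeWo, a ratio of 144 (exact 95% interval 84.2 to 272). Over all 16 libraries, 43 genes were higher in MeWo and 7 lower, against 36.8% and 41.4% of all genes. These line comparisons share libraries with the comparisons within each line and are not independent of them.

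The genes that replicate DNA fell in the same A101D libraries. All 16 listed S phase genes, from the MCM2 to MCM7 helicase subunits to RRM2 of ribonucleotide reductase, were lower in replicates 5-8, against 35.8% of all genes. Their median log2 fold change was -1.98. FEN1 (log2 -0.15) was not called under median-of-ratios or total-count scaling and stood at 0.01 under the latter. Their summed level went from between 1840 and 1901 CPM to between 522 and 543 CPM, 3.5-fold lower. PCNA, the sliding clamp of the replication fork, stood at 118 CPM, 128 CPM, 124 CPM and 124 CPM and then at 39.7 CPM, 41.2 CPM, 41.8 CPM and 42.6 CPM (log2 -1.58, SE 0.05). In MeWo, 12 of the 16 were lower in replicates 5-8, against 8.51% of all genes, with a median of -0.17. The part of this change in the histone result was not tested.

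Of the 9 listed genes of histone transcription, 7 were lower and 1 higher in A101D replicates 5-8, against 35.8% and 29.6% of all genes. Their median log2 fold change was -1.16. CCNE2, which encodes cyclin E2, stood at 10.1 CPM, 10.3 CPM, 11.3 CPM and 10.1 CPM and then at 0.601 CPM, 0.877 CPM, 0.63 CPM and 0.917 CPM (log2 -3.77, SE 0.17). E2F1, a transcription factor of S phase entry, fell by 2.44 on the log2 scale. NPAT itself fell slightly. Its values were 46.4 CPM, 53.1 CPM, 49.3 CPM and 47.5 CPM and then 39.1 CPM, 41.2 CPM, 39 CPM and 42.2 CPM (log2 -0.28, SE 0.05, adjusted p = 9.74e-07). CASP8AP2, which works with NPAT in histone locus bodies, fell by 0.98, and HINFP, a factor of H4 promoters, rose by 0.37.

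Among 10 listed genes of 3′ end processing, 9 were lower and 1, LSM10, higher, against 35.8% and 29.6% of all genes. Their median was -0.55. SLBP stood at 56.1 CPM, 60 CPM, 59.8 CPM and 59.6 CPM and then at 27.5 CPM, 26.2 CPM, 27.7 CPM and 27.7 CPM (log2 -1.11, SE 0.05, adjusted p = 3.55e-23). LSM11, a subunit of the U7 snRNP, fell by 1.57 (SE 0.07). The 7 listed genes of histone mRNA decay were split, with 3 higher and 4 lower, against 29.6% and 35.8% of all genes. Their median was -0.09, which became 0.07, with 4 higher and 3 lower, when libraries were scaled by total counts. UPF1, a helicase of mRNA decay, went from called lower (log2 -0.09) to called higher (0.07) with that scaling. ERI1, the exonuclease that trims the stem-loop, fell by 0.48. In MeWo, SLBP ran from 76.6 to 92.2 CPM over all 8 libraries.

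Histone chaperones fell in 8 of 11 cases, against 35.8% of all genes, with a median of -0.70. ASF1B, which hands H3 and H4 to the replication fork, stood at 45.7 CPM, 44.6 CPM, 44.8 CPM and 46.7 CPM and then at 3.57 CPM, 4.1 CPM, 3.72 CPM and 4.58 CPM (log2 -3.51, SE 0.09). CHAF1A fell by 1.94 and NASP by 1.46. HIRA and DAXX, which place the H3.3 variant outside replication, had log2 fold changes of 0.03 and 0.02 and did not pass the test, nor did ASF1A (0.06). All 3 were called higher under median-of-ratios and under total-count scaling.

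Of the 10 genes compared that encode replication-independent variants or H2AX, 8 were lower and 1, H2AJ, was higher. Over all genes, 35.8% were lower and 29.6% higher. The median of the 10 was -0.50. The call for H2AJ (log2 0.19) was lost under upper-quartile scaling. H3-3B, which encodes the H3.3 protein, fell by 0.22 and H3-3A by 0.36, and H2AZ1 fell by 0.67. CENPA, the centromeric H3, fell by 2.53 and H2AX by 1.23. In MeWo replicates 5-8, 3 of 9 transcription genes, 3 of 10 processing genes and 1 of 7 decay genes were lower. So were 5 of 11 chaperones and 1 of these 10 genes, against 8.51% of all genes. None in these lists was called higher, against 4.59% of all genes. Under total-count scaling the lower counts became 1, 2, 0, 3 and 1, with 1 transcription, 2 decay and 2 variant genes higher.

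**Figure D5:**
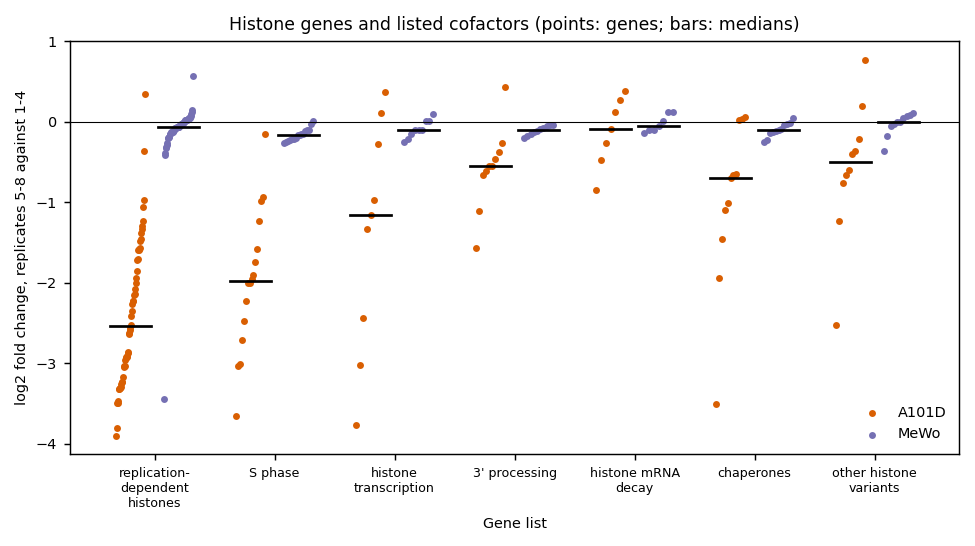
Log2 fold change between replicates 5-8 and 1-4 for the tested replication-dependent histone genes and 6 gene lists, in A101D (orange) and MeWo (purple), each point a gene and each black bar a median. The A101D medians are -2.55 for the histone genes, -1.98 for S phase genes and between -1.16 and -0.09 for the other lists.

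Other features moved between the same libraries. Of the 6 melanocyte markers, 5 were lower and 1 higher in A101D replicates 5-8, against 35.8% and 29.6% of all genes. Their median log2 fold change was -0.38. SOX10 (log2 -0.14) stood at 0.02 under total-count scaling. All 5 tested markers of other cell types were higher in A101D replicates 5-8, against 29.6% of all genes. The highest of them there, LUM, averaged 2.05 CPM. KRT5, PTPRC and CD3E had too few counts to test. RN7SL1, an abundant RNA without a poly(A) tail, was lower in replicates 5-8 of A101D (log2 -0.52, adjusted p = 0.0046) and of MeWo (log2 -1.0). Mitochondrial genes held 1.71 to 1.92% of counts in A101D replicates 1-4 and 1.93 to 2.33% in replicates 5-8. The part of these features in the histone result was not tested.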

How the data were processed

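RNA was measured in 16 total RNA libraries of 2 melanoma lines. Reads were processed with Trimmomatic 0.39-1, STAR 2.7.1a and featureCounts 2.0.0 on GRCh38, per the submitters' processing notes. The authors deposited whole-number counts per gene that were not normalized, each joined to its gene identifier in 1 cell, per the file headers. How strand and reads with several matches were treated, and which annotation release was used, is not given in the sources used here, so antisense and near-identical genes may share or lose reads.

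Identifiers and counts were separated, TMM factors computed (trims of 30% and 5%), and 21569 genes fitted with limma 3.58.1 (voom, R 4.3.3) with 4 groups of 4 libraries. Benjamini-Hochberg adjustment ran over all tested genes, with a threshold of 0.05. Tested genes reached 0.298 CPM in 4 or more libraries and a total of 15 counts. A quasi-likelihood count test was designed for plain count columns and, although the separated values would allow it, was replaced by voom because the joined cells did not pass as counts. The fit was tested on simulated data. No pair of libraries within a group agreed within sampling noise.

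Members and lists were chosen with earlier results of these data known, and 1 listed gene is not reported here. Named histone genes are the 2 of highest mean CPM per class, the 2 of largest and 2 of smallest log2 fold change in each of 5 comparisons among those with a mean of at least 1 CPM, genes without counts, and small groups that go against the rest. Other settings were other scalings, filters, limma-trend, a replicate block, fewer groups and leaving out each library.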

Additional observations from a re-analysis of the deposited data

Results flagged for a closer look

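The change between replicates 1-4 and 5-8 differed between the lines for 19 of the 20 named histone genes that were tested, by limma's test of that difference. Some of these genes were named for the size of that difference or of a change it compares, so their count is no independent support. Over all genes the difference was positive in 27.6% and negative in 20.8%. On the log2 scale, as the MeWo change minus the A101D change, it was 2.59 in H1-1, 2.16 in H1-3, 1.37 in H1-4 and 3.34 in H1-5. Among H2A genes it was 0.27 in H2AC6, 2.50 in H2AC8, 2.96 in H2AC11 and 0.73 in H2AC25. Among H2B genes it was 1.75 in H2BC5, 2.67 in H2BC9, 1.68 in H2BC12 and 1.42 in H2BC26. H3C2 gave 3.52, H3C3 2.46 and H3C12 3.59, and H3C6 gave -0.31. H4C3 gave 2.06, H4C5 1.53 and H4C9 0.56. H1-3, H2BC9 and H3C12 passed the low-count filter through A101D alone, so their values rest on few MeWo counts and are not usable as differences.

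Single libraries stood far from the other 3 of their group in 3 of 104 sets of 4 values, by Dixon's criterion, against 5.2 that chance would give. H2AC11 was at 13.8 CPM in A101D replicate 8 against 12.2 to 12.3 CPM. H4C9 was at 22.2 CPM in A101D replicate 1 against 19.8 to 20.2 CPM. H2BC9 was at 0.166 CPM in MeWo replicate 6 against 0.0585 to 0.0751 CPM, a matter of a few counts.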

How the results depend on the processing

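Counts of called histone genes stayed within 1.5 times the reported ones in every setting run, except for MeWo replicates 5-8 against 1-4. There, the 11 lower genes became 7 with total counts only and 7 with limma-trend, and ranged from 6 to 15 when single libraries were left out. The single higher gene became 0 with upper-quartile factors, 0 without the low-count filter, 3 with total counts only and 2 when only the MeWo libraries were fitted, and ranged from 0 to 1 when single libraries were left out. The causes were not tested. With a replicate block in the fit, 41 genes were higher and 14 lower in MeWo in replicates 1-4, 49 and 6 in replicates 5-8, 42 and 7 over all libraries, and 54 and 1 for the difference between the lines' changes. No pairing by number was evident: 2 of 8 same-numbered pairs correlated above 0.1 in their deviations, and 2 correlated best with their own number. Such correlations cannot exclude that same-numbered samples were handled together. Over 2336 combinations of a named histone gene, a comparison and a setting, none reversed a call, 32 lost and 21 gained one. The mean summed levels of all members and of each class, by group, were less stable to the scaling. Under the other scalings they moved by their SD or more in 38 checks and by less in 34. Upper-quartile scaling moved the median of all genes between the lines from -0.09 to 0.41 in replicates 1-4, and total counts moved it from -0.05 to 0.11 in A101D, where 8490 of all genes were then higher and 5770 lower. With the 48 tested genes of mostly unique windows, 47 fell and 1 rose in A101D. DESeq2 and edgeR were left out, because they were planned only for columns that passed as plain counts, although the separated values would allow them. Depth limits H1-3, H2BC9, H2BC10, H3C8 and H3C12 in MeWo.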
